A study of Mus musculus with 4 samples.

Results

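The genes described here are 10 inflammatory chemokines of the CC and CXC families, Ccl2, Ccl3, Ccl4, Ccl5, Ccl7, Ccl8, Ccl11, Cxcl1, Cxcl2 and Cxcl5. They were chosen by name as attractants of monocytes, eosinophils, T cells and neutrophils, and they are 10 of 22907 genes with a symbol on the array. They are read by 11 probes, 2 for Ccl4 and 1 for each other gene. RNA was measured on 4 one-colour Agilent arrays, 1 for each combination of sorted cell type and host genotype. The hosts were C57BL/6Ncr mice of 8 weeks, either Wt or Sipa1-/-, the latter lacking in all their cells a GTPase-activating protein that switches off Rap signalling. All hosts, Wt included, had received 15000 GFP+ Bcr-abl+ hematopoietic progenitor cells (HPCs) under the skin in Matrigel, and the tumors were taken on day 12. Mesenchymal stroma cells (MSCs) were sorted as GFP- CD45- Ter119- CD31- cells, so that the gate named what the cells lacked and no mesenchymal protein. CD8+ T cells were sorted as GFP- TCRb+ CD8+ cells. The design text gives 5 mice per genotype, and whether their cells were pooled for each array is not given in the sources used here.

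Chemokines are small secreted proteins that bind to glycosaminoglycans on cells and matrix and guide leukocytes that carry the matching G protein-coupled receptors. Fibroblastic stroma is a known source of Ccl2, Ccl7, Ccl11, Cxcl1 and Cxcl5 in inflamed tissue, where interleukin-1, TNF and interleukin-17 switch these genes on through NF-kB, C/EBP and AP-1 and their short-lived mRNAs are removed by decay factors. Ccl3, Ccl4 and Ccl5 are classic products of activated and memory CD8+ T cells and of macrophages.

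Promoters are shown because NF-kB acts on these genes through short sites close to the start. RefSeq promoters of build GRCm38.p6, running from 250 bases before to 50 bases after the start, were at hand for 4 of the 10 genes. Capitals mark the letters GGGNNNNNCC on either strand, a broad form of the kB site, with overlapping matches joined.
Cxcl1, chr5:90890995-90891294, forward strand: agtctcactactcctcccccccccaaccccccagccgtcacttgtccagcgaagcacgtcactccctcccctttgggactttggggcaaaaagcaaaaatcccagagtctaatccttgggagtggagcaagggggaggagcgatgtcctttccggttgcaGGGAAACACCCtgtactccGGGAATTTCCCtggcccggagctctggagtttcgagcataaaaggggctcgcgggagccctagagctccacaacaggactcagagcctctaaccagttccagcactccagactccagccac
Cxcl2, chr5:90903649-90903948, forward strand: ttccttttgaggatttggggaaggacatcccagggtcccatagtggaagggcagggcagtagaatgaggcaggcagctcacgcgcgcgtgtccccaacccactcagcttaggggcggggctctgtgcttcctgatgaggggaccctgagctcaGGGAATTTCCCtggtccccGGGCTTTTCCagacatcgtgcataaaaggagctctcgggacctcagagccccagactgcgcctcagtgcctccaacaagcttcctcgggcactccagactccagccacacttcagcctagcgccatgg
Ccl8, chr11:82114935-82115234, forward strand: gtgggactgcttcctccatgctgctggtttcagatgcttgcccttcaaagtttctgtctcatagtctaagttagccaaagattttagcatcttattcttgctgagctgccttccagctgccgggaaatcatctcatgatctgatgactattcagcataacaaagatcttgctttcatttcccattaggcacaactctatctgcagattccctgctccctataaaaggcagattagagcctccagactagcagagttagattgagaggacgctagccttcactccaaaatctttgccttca
Ccl3, chr11:83649329-83649628, reverse strand: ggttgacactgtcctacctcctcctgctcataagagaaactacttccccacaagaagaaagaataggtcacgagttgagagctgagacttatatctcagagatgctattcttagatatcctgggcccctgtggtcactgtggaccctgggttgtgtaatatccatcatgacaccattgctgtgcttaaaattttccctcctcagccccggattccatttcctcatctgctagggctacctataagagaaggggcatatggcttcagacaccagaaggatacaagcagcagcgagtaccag
In Cxcl1 the kB letters began 90, 89, 71 and 70 bases before the start, as a pair of overlapping matches on opposite strands at each of both places. In Cxcl2 they began 97, 96 and 78 bases before it. Both promoters held GGGAATTTCC, which 0.0883% of 32851 promoter windows held on either strand, whereas the broad letters GGGNNNNNCC were in 50.8% of them. Neither the Ccl8 nor the Ccl3 window held the broad letters. TATAAA, in 13.6% of windows, began 32 bases before the Ccl8 start and was in none of the other 3. The AP-1 letters TGANTCA, in 7.81% of windows, were in none of the 4. Such matches describe letters and not sites in use.

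Each condition has 1 array, so there was no test, p-value or spread between replicates, and the number of arrays limits the precision. Levels are given as the log2 of the background-corrected signal minus the array's 75th percentile, and differences as log2 ratios, on which 1 is 2-fold. The error model of the scanner software put 0.14 to 0.17 on a member's level and 0.20 to 0.23 on a ratio, and these errors (written ±) cover the measurement of 1 array and not the difference between mice. Between 60.3% and 65.3% of spots were well above background, and none was saturated. Levels of different probes are not compared with each other. Probe sequences were not used here, so that cross-hybridisation between related chemokines was not examined. Of the 10 genes, 9 passed the study's spot flags on all 4 arrays. Cxcl2 was well above background on all 4 but carried the flag for an uneven local background on 3 of them, all but the Wt CD8+ T cell array, and its values are given outside the counts. The targeted gene Sipa1 was at 4.04 in Wt and 2.62 in Sipa1-/- MSCs, and its T cell levels were 4.42 and 2.56, lower in Sipa1-/- in both sorts and above background throughout.

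The sorts carried their markers, with exceptions. Col1a1, a fibroblast collagen, was at 6.88 and 7.15 in Wt and Sipa1-/- MSCs against 2.74 and 4.29 in CD8+ T cells, while Cd3e was at 4.15 and 4.31 in CD8+ T cells against -2.63 and -1.97 in MSCs. Pdgfra, used to define MSCs, stood at 3.01 and 4.52 there, on spots that carried a flag. The Wt MSC array held much B-lineage RNA, although the gate was CD45-. There the summed linear level of 14 measured B-lineage markers was 690, against 42.8 on the Sipa1-/- MSC array. The CD45 gene Ptprc was at 0.76 and -0.55 on the same arrays. Pan-leukocyte markers summed to 167 in Wt and 42.5 in Sipa1-/- MSCs. Neutrophil markers were strong on all 4 arrays, with sums of 736 and 828 in Wt and Sipa1-/- MSCs and 642 and 338 in Wt and Sipa1-/- CD8+ T cells. Erythroid markers summed to 621 and 662 in Wt and Sipa1-/- MSCs, although the gate was Ter119-. In Wt and Sipa1-/- CD8+ T cells they summed to 15.9 and 7.31. With 1 array a condition none could be left out, and in bulk RNA fewer cells of a type and less RNA per cell cannot be told apart.

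The 4 CC chemokines best known for drawing monocytes and eosinophils, Ccl2, Ccl7, Ccl8 and Ccl11, were all higher on the Sipa1-/- MSC array than on the Wt MSC array, by 2.64-fold to 5.79-fold. Ccl2, the main ligand of the monocyte receptor Ccr2, was at 4.76 in Wt MSCs, 6.16 in Sipa1-/- MSCs, 1.20 in Wt CD8+ T cells and 1.39 in Sipa1-/- CD8+ T cells. Both MSC arrays were high for it and both T cell arrays low, and the T cell arrays lay within the measurement error of each other. Its log2 ratio of Sipa1-/- over Wt was 1.40 ± 0.20 for MSCs and 0.18 ± 0.20 for CD8+ T cells.

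Ccl7, a further Ccr2 ligand, was at 3.64, 5.42, -0.52 and 0.22 in the same order of arrays. Its ratio was 1.78 for MSCs, 3.43-fold, and 0.74 for CD8+ T cells, so that both sorts were higher in Sipa1-/- and the MSC arrays stood far above the T cell arrays. Ccl8 was at 3.45, 5.84, 1.65 and 2.50, with ratios of 2.39 for MSCs, or 5.24-fold, and 0.85 for CD8+ T cells. The 4 arrays kept for Ccl8 the order of Ccl7, with Sipa1-/- MSCs highest and Wt CD8+ T cells lowest.

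Ccl11, or eotaxin, which draws eosinophils through Ccr3, was the chemokine whose genotype ratios were largest in the upward direction and alike in both sorts. It was at 2.75 in Wt and 5.29 in Sipa1-/- MSCs, and at -2.65 in Wt and 0.06 in Sipa1-/- CD8+ T cells. The MSC ratio was 2.53 ± 0.20, 5.79-fold, and the T cell ratio 2.70, 6.52-fold, and the difference between these ratios was -0.17 with an error of about 0.29. The Wt T cell signal was only 2.75 times its local background, and with normexp, another background correction, the T cell ratio was 2.02. Of all genes measured in CD8+ T cells 6 had a higher ratio, against 129 in MSCs. Fibroblast markers moved the same way in the CD8+ T cell arrays. Their median ratio there was 1.57, 14 of 16 passed 2-fold upward in Sipa1-/-, and their summed linear level went from 215 to 318. Thy1, which T cells also express, made 165 and 176 of these sums, and the other 15 genes went from 49.0 to 142. Their part in the Ccl11 difference was not tested.

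Ccl3, Ccl4 and Ccl5, which T cells make themselves, ran the other way between the sorts and were far higher in CD8+ T cells. Ccl3 was at -0.22 in Wt MSCs, -0.24 in Sipa1-/- MSCs, 3.10 in Wt CD8+ T cells and 3.24 in Sipa1-/- CD8+ T cells. The genotypes lay within the measurement error in each sort, with ratios of -0.02 for MSCs and 0.13 for CD8+ T cells. The sign of these small values turned with the scaling, to 0.19 for MSCs with the authors' matrix values and to -0.01 for CD8+ T cells after a median shift.

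Ccl4 was read by 2 probes that gave the same picture. The probe A_51_P509573 was at 0.66, 0.29, 4.51 and 5.11 on the Wt MSC, Sipa1-/- MSC, Wt CD8+ T cell and Sipa1-/- CD8+ T cell arrays, and A_55_P2744077 at -0.01, -0.46, 3.76 and 4.40. The MSC ratios were -0.37 and -0.45, and those of CD8+ T cells 0.60 and 0.64. Both probes were short of 2-fold in either sort, and the MSC ratio of A_51_P509573 lay within 2 errors of 0.

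Ccl5, or RANTES, a product typical of memory CD8+ T cells, was at 1.91 in Wt MSCs and 3.32 in Sipa1-/- MSCs, and at 8.23 and 8.14 in CD8+ T cells. The T cell arrays were 80.1-fold above the MSC arrays in Wt and 28.3-fold in Sipa1-/-. Its genotype ratio was 1.41 in MSCs, 2.65-fold, against -0.09 in CD8+ T cells, where the arrays lay within the measurement error and the sign turned to 0.03 after quantile normalization and 0.04 with the matrix values. The T cell marker list, measured for 12 genes in MSCs, had a median ratio of 0.34, with 8 genes above 0 and 4 below. In Sipa1-/- 3 genes were past 2-fold upward and 4 downward. The T cell receptor genes Cd3g at 1.43 and Cd3d at 1.10 and the coreceptor gene Cd8b1 at 1.31 stood near Ccl5, while Cd2, Lat, Zap70 and Lck were lower, at -3.52 to -1.07. Its summed linear level was 22.7 in Wt and 5.69 in Sipa1-/- MSCs, of which Cd2 alone made 16.9 and 1.47, so that the other 11 genes summed to 5.83 and 4.22. The 13 genes measured in CD8+ T cells summed to 575 and 594, and no Cd8a spot passed the flags in Wt MSCs. On the Wt and Sipa1-/- MSC arrays the B-lineage markers summed to 690 and 42.8. The part of B-lineage RNA in the T cell list of MSCs was not tested. Nor was the part of T cell RNA in the Ccl5 values of MSCs.

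The CXC chemokines Cxcl1, Cxcl2 and Cxcl5 act on the neutrophil receptor Cxcr2. Cxcl1, also called KC, was at 3.86 in Wt MSCs, 5.50 in Sipa1-/- MSCs, 0.02 in Wt CD8+ T cells and -0.64 in Sipa1-/- CD8+ T cells. It was 3.12-fold higher in Sipa1-/- MSCs, a log2 ratio of 1.64 ± 0.20, and lower in Sipa1-/- CD8+ T cells at -0.66. Among the counted genes it had the widest gap between MSC and CD8+ T cell ratios, 2.30 with an error of about 0.29.

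Cxcl5, or LIX, was at 1.25 in Wt MSCs, 2.57 in Sipa1-/- MSCs, -3.67 in Wt CD8+ T cells and -3.12 in Sipa1-/- CD8+ T cells. The ratio was 1.32 in MSCs, 2.49-fold. That in CD8+ T cells, 0.55, came from signals only 1.42 and 1.97 times the local background, and it was 0.23 with normexp.

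Cxcl2, which carries the kB letters at nearly the same distance from its start as Cxcl1, had another pattern. It was at -1.22 in Wt MSCs, -0.63 in Sipa1-/- MSCs, 1.21 in Wt CD8+ T cells and -1.48 in Sipa1-/- CD8+ T cells, so that the Wt CD8+ T cell array alone was high. Without the flags its MSC ratio was 0.59 and its T cell ratio -2.69, 6.47-fold lower in Sipa1-/-. Neutrophil markers moved with it in CD8+ T cells, where 8 of 11 passed 2-fold downward in Sipa1-/- with a median ratio of -1.27. S100a8 and S100a9 had ratios of -1.48 and -1.05, while Csf3r, Elane and Mpo were at -0.12, 0.04 and 0.16. The monocyte and neutrophil gene Cd14 was at -2.43 and Il1b at -2.31. Cd14 was the only 1 of 16 monocyte and macrophage markers past 2-fold downward there, and the median of these markers was 0.08. The same neutrophil list had a median of 0.24 in MSCs. Its part in the Cxcl2 values was not tested.

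**Figure D1:**
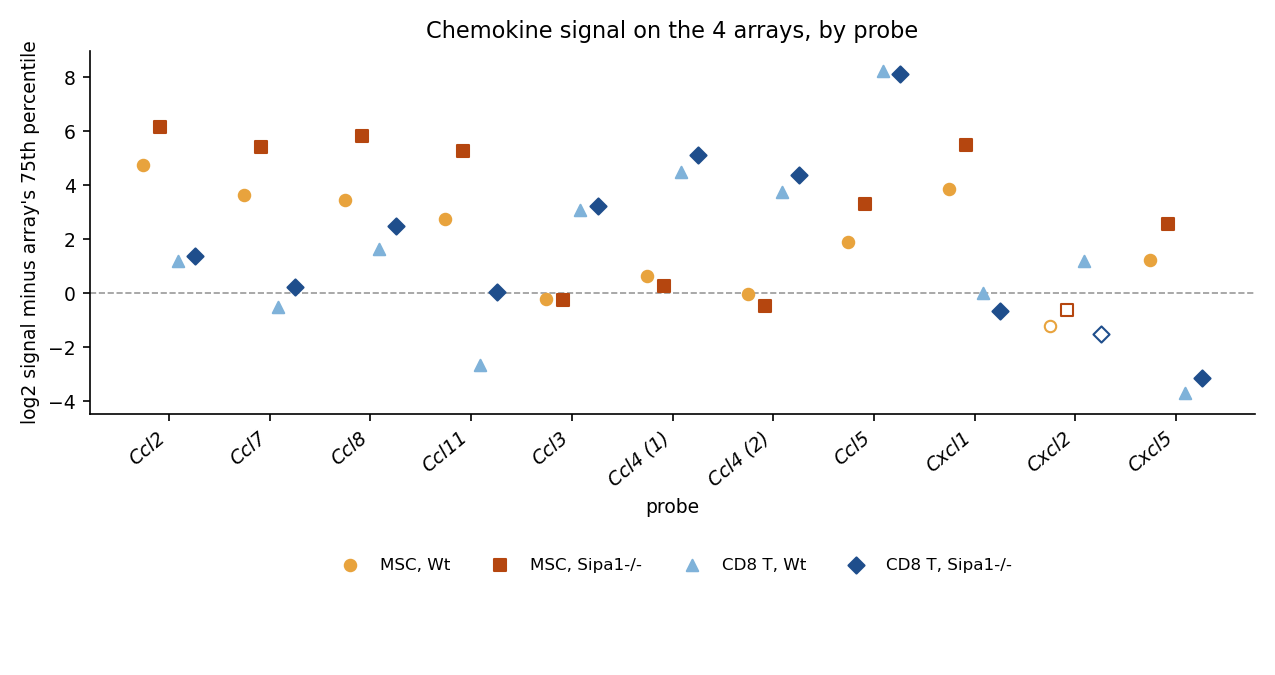
Level of each chemokine probe (log2 signal minus the array's 75th percentile, y axis) on the 4 arrays, 1 point per array, with bars of the scanner software's error that mostly hide behind the points and open points where the spot carried a flag. Ccl2, Ccl7, Ccl8, Ccl11, Cxcl1 and Cxcl5 were higher on both MSC arrays than on both CD8+ T cell arrays, and Ccl3, Ccl4 and Ccl5 lower, with both Ccl5 points of CD8+ T cells above 8.

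Over the 9 counted genes, 7 were at least 2-fold higher in Sipa1-/- MSCs and 0 passed 2-fold downward, beside 19.3% of all 15294 measured genes higher and 11.3% lower. Their median log2 ratio was 1.41, against 0.04 over all genes. The exceptions were Ccl3 and Ccl4. By the median, the fibroblast markers, at 1.56 with 13 of 13 above 0 and 9 at least 2-fold higher, were as far up as the chemokines. Set against the median of those markers, an alternative chosen after seeing the data, 0 of 9 chemokines were 2-fold higher and their median was -0.16, with Ccl11 at 0.97, Ccl8 at 0.82, Ccl7 at 0.21 and Cxcl1 at 0.08 above 0. The summed level of the fibroblast markers was 1062 in Wt and 1809 in Sipa1-/- MSCs, and that of the 9 chemokines 80.1 and 274. The collagen genes Col1a1, Col1a2 and Col3a1, among the brightest of these markers, had ratios of only 0.26, 0.35 and 0.38. The scaling used the median of the list and not these genes. More chemokine RNA per stromal cell and a larger share of stromal RNA cannot be told apart on these arrays.

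In CD8+ T cells 1 of 9 genes, Ccl11, was at least 2-fold higher in Sipa1-/- and 0 passed 2-fold downward. All genes had 2.66% higher and 1.4% lower, of 14336. The median of the 9 was 0.55 against -0.02 over all genes, and it was 0.23 with normexp. The value of 0.55 is the ratio of Cxcl5, whose T cell signals were only 1.42 and 1.97 times the local background. Ccl7, Ccl8 and Ccl4 lay between 0.62 and 0.85, and Cxcl1 was at -0.66.

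**Figure D2:**
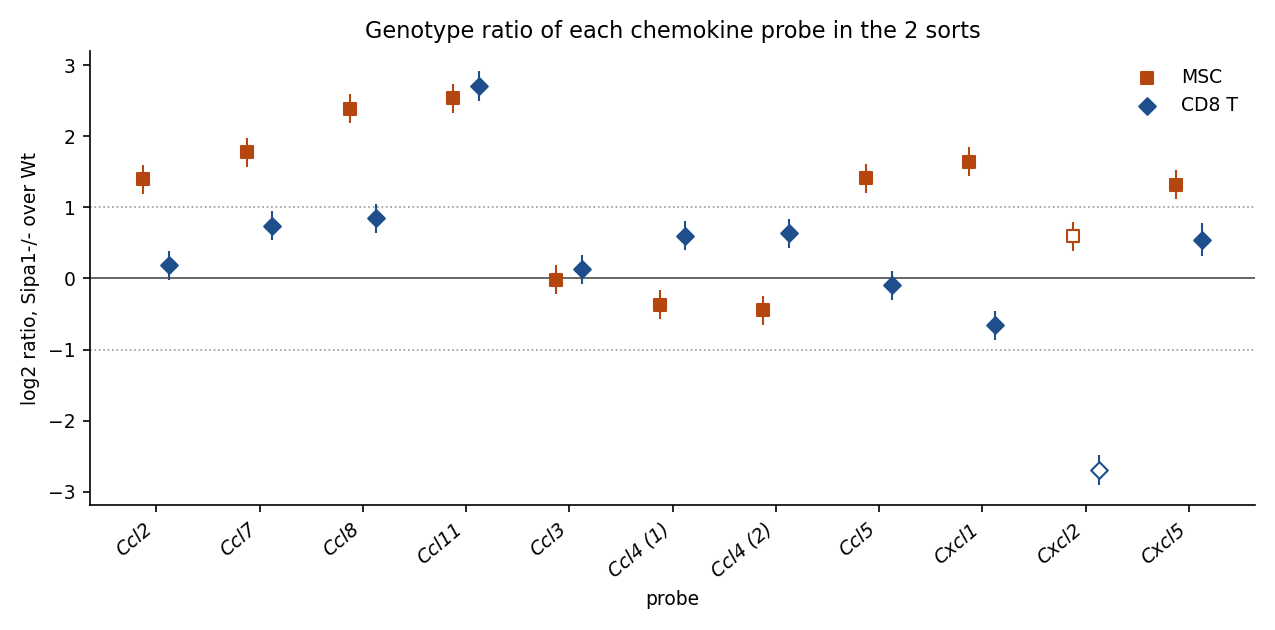
Log2 ratio of Sipa1-/- over Wt (y axis) for each probe in MSCs (squares) and CD8+ T cells (diamonds), with the software's error of the ratio as bars, dotted lines at 2-fold and open points for flagged spots. Ccl11 sits at 2.53 and 2.70 in the 2 sorts, whereas Cxcl1 is at 1.64 for MSCs and -0.66 for CD8+ T cells.

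**Figure D3:**
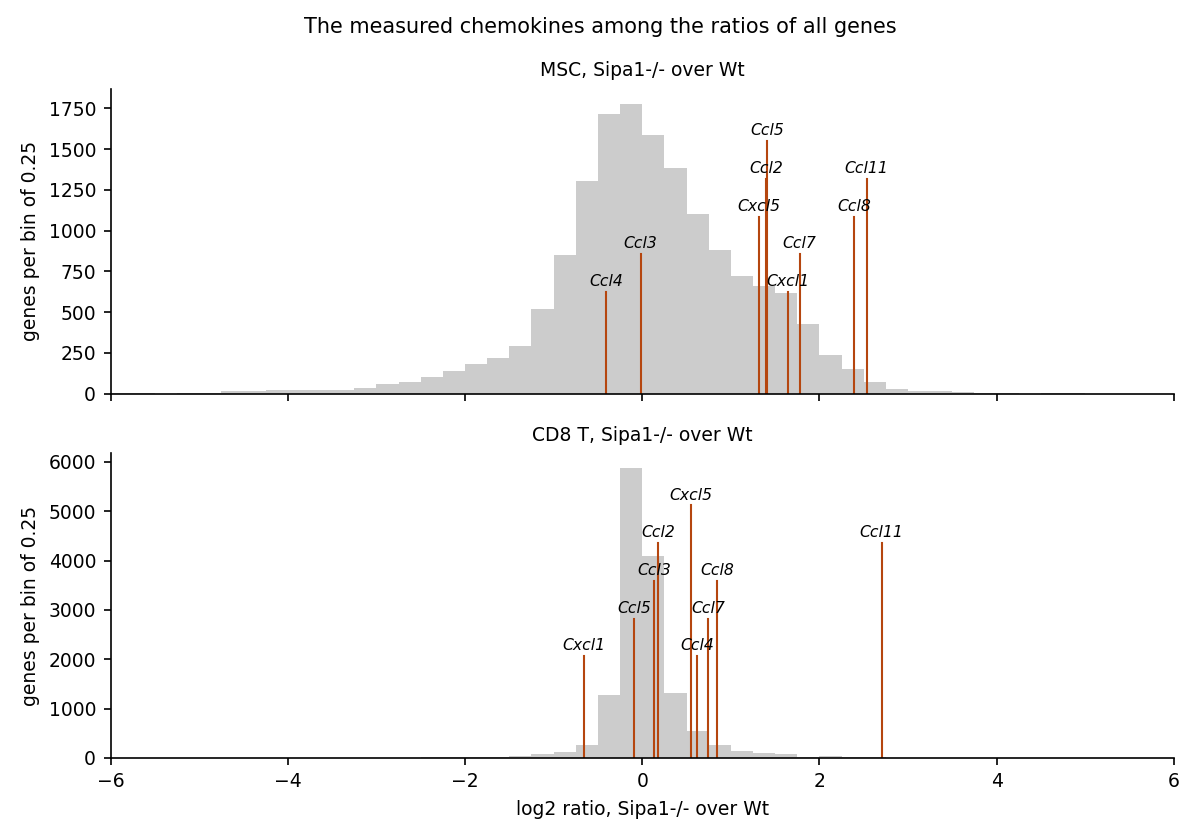
Number of genes per bin of log2 ratio, Sipa1-/- over Wt, among all measured genes (grey bars, with values past the axis counted in the end bins) for MSCs above and CD8+ T cells below, with a line for each of the 9 counted chemokines. Grey bars spread wider in MSCs, where 7 lines lie right of 1, than in CD8+ T cells, where only Ccl11 does.

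Between the sorts, 6 of the 9 genes passed 2-fold upward in MSCs over CD8+ T cells and 3 passed it downward, in Wt and again in Sipa1-/- mice. The background in Wt was 17.3% of all 14222 genes 2-fold up in MSCs and 12.8% down, and in Sipa1-/- 21.9% and 18.7% of 14296. The log2 ratios of MSCs over CD8+ T cells in Wt were 5.40 for Ccl11, 4.92 for Cxcl5, 4.16 for Ccl7, 3.84 for Cxcl1, 3.56 for Ccl2 and 1.80 for Ccl8. In this order Ccl11 and Cxcl5 lay within 2 errors of each other, as did Ccl7 and Cxcl1, and Cxcl1 and Ccl2. In Sipa1-/- mice the ratios were 6.14 for Cxcl1, 5.69 for Cxcl5, 5.23 for Ccl11, 5.20 for Ccl7, 4.78 for Ccl2 and 3.34 for Ccl8, and each neighbour but Ccl8 lay within 2 errors of the next. The order also moved with the background correction, since with normexp Cxcl5 was at 3.39 in Wt and 4.43 in Sipa1-/-, and Ccl11 at 4.55 and 5.06. The lower 3 stood at -3.32 (Ccl3), -3.81 (Ccl4) and -6.32 (Ccl5) in Wt, and at -3.47, -4.84 and -4.82 in Sipa1-/-. The comparisons share the arrays of the genotype comparisons and are not independent of them.

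The genes lie in clusters, which arose by duplication. In RefSeq order on chromosome 11, Ccl2, Ccl7, Ccl11, Ccl12 and Ccl8 follow each other, and 26 protein-coding genes further on come Ccl5, Ccl9, Ccl6, Ccl3 and Ccl4. All 5 genes of the first group were higher in Sipa1-/- MSCs, with Ccl12, a further Ccr2 ligand, at 0.78. Ccl12 was at -0.01 in CD8+ T cells, between its neighbours Ccl11 at 2.70 and Ccl8 at 0.85. The second group was mixed in MSCs, with Ccl6 at 1.18 and Ccl9 at 0.19 between Ccl5 at 1.41 and Ccl3 at -0.02. On chromosome 5 the order is Cxcl5, Ppbp, Pf4, Cxcl3, Cxcl15, Cxcl1 and Cxcl2. The platelet chemokines Ppbp and Pf4 were at 0.00 and 0.36 in MSCs, between Cxcl5 at 1.32 and Cxcl1 at 1.64. Cxcl3 was at 0.09, but its MSC levels of -5.74 and -5.65 lay near the lowest called well above background, -5.86 and -5.79.

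**Figure D4:**
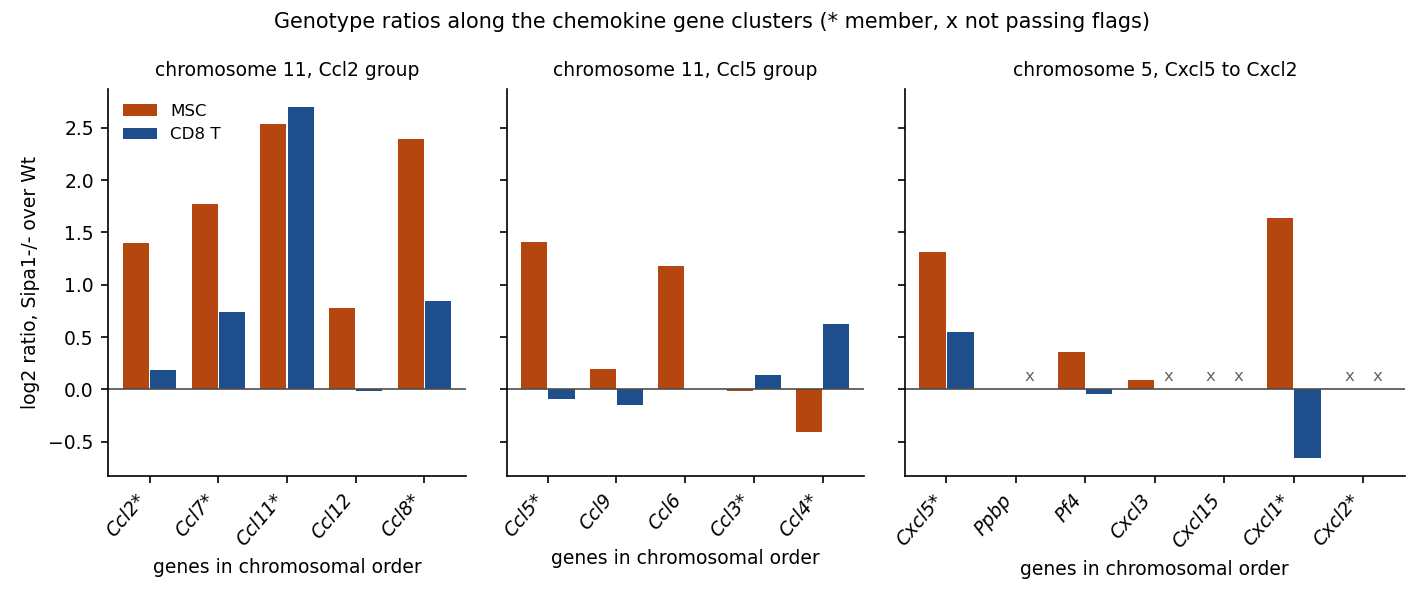
Log2 ratio of Sipa1-/- over Wt (y axis) for the genes of each chemokine cluster in chromosomal order, in MSCs and CD8+ T cells, with an asterisk on the 10 chemokines described and an x where no probe passed the spot flags of that sort. All 5 genes from Ccl2 to Ccl8 have MSC bars above 0, while the measured chromosome 5 genes between Cxcl5 and Cxcl1 stay at or below 0.36.

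Counts of the further lists stand beside 19.3% of all genes higher and 11.3% lower in Sipa1-/- MSCs. For CD8+ T cells these shares were 2.66% and 1.4%. Of the other chemokine ligands, 9 of 19 measured genes stood at least 2-fold up and 1 down in Sipa1-/- MSCs, with a median of 0.78. The lower gene was Ccl25 at -1.34. Cx3cl1, a membrane-bound ligand of monocyte Cx3cr1, had the largest ratio at 2.64, then Cxcl9 at 2.25 and Ccl17 at 1.90. The Wt level of Ccl17 was low, at -4.90, where the lowest called well above background was -5.86. The T cell arrays had 3 of 17 higher, Ccl1 at 2.66, Cx3cl1 at 1.63 and Cxcl12 at 1.27, with a list median of 0.05. The T cell attractants Cxcl9 and Cxcl10 were there at 0.56 and -0.55.

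Receptors of the 10 chemokines differed less in MSCs. Of 7 measured, 2 were at least 2-fold higher in Sipa1-/-, among them the scavenging receptor Ackr2 at 2.13, and the list median was 0.12. The probes of Ackr2 differed in level. Its Wt MSC level was -3.46 over the probes kept here and -1.16 over those kept between the sorts. Ackr2 takes up inflammatory CC chemokines without signalling to the leukocyte. Cxcr1 and Cxcr2 were lower in Sipa1-/- CD8+ T cells at -2.07 and -1.93, along with the neutrophil markers above. The eotaxin receptor Ccr3 was higher there at 1.79, but its levels were low, -4.67 in Wt and -2.88 in Sipa1-/-. The lowest level called well above background on the Wt CD8+ T cell array was -5.56.

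Inducing cytokines and their receptors had a median of 0.87 in MSCs, with 11 of 22 past 2-fold upward and 2 downward. Il6 was higher at 2.35 and the interleukin-17 receptor chain Il17rc at 1.71. The probes of Il17rc differed in level. Its Wt MSC level was -1.49 over the probes kept here and 1.48 over those kept between the sorts. The lymphotoxin genes Lta and Ltb were lower at -3.11 and -1.96. B-lineage markers summed to 690 in Wt and 42.8 in Sipa1-/- MSCs, and the part of B-lineage RNA in the lymphotoxin values was not tested. The largest values among CD8+ T cells were those of Il1b (-2.31), its antagonist Il1rn (-2.23) and Osm (-1.72), each lower in Sipa1-/-, with a list median of 0.05. The pathway of NF-kB and AP-1 had 9 of 31 genes past 2-fold upward and 1 downward in MSCs, beside 19.3% and 11.3% of all genes. Its median was 0.37. The largest were AP-1 and related factors, Fosb at 2.64, Fosl1 at 2.33, Atf3 at 2.13 and Fos at 1.54. The probes of Fosb differed in level. Its Wt MSC level was -1.53 over the probes kept here and 1.46 over those kept between the sorts. The lower gene was the NF-kB subunit Rel at -1.22, and the part of B-lineage RNA in its values was not tested either. For CD8+ T cells 0 of 31 were higher and 2 lower, Fosl1 at -1.35 and Cebpb at -1.20.

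Among factors of mRNA decay and feedback, 3 of 10 were at least 2-fold higher in Sipa1-/- MSCs, Dusp1 at 1.35, Zfp36 at 1.20 and Socs3 at 1.04, and Hnrnpd was lower at -1.54. Zfp36 encodes tristetraprolin, which marks AU-rich chemokine and cytokine mRNAs for decay. On the T cell arrays none of the 10 passed 2-fold and the median was -0.16. Proteoglycans that present chemokines and proteases that trim them had 12 of 15 past 2-fold upward and 1 downward in MSCs, with a median of 1.74. Mmp12, a macrophage protease, was at 2.98 from a Wt level of -5.19, near the lowest level called well above background there, -5.86. Further genes were the glypican Gpc6 at 2.67 and the gelatinase Mmp2 at 2.01, while Dpp4, a peptidase that trims Ccl5 and Ccl11, was lower at -1.19. Of 13 measured in CD8+ T cells 5 were higher, Mmp2 the most at 2.23, and the neutrophil gelatinase Mmp9 was lower at -1.43, with a median of 0.92. Myeloid growth factors had 4 of 5 measured genes at least 2-fold higher in MSCs, Il34 at 1.99, Kitl at 1.89, Csf1 at 1.49 and Lif at 1.18, and none past 2-fold in CD8+ T cells. The Wt MSC levels of Kitl and Lif were low, at -4.37 and -4.47. That of Il34 was -1.91 over the probes kept here and -0.77 over those kept between the sorts.

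Markers of monocytes and macrophages, neutrophils and eosinophils are given with the same ratios. Monocyte and macrophage markers had a median of 0.99 in MSCs, with 7 of 15 at least 2-fold higher in Sipa1-/- and a summed level that went from 115 to 227. Ly6c2 alone made 104 and 212 of these sums, and the other 14 genes went from 11.1 to 15.1. Their CD8+ T cell median was 0.08 and the sum 222 in Wt and 211 in Sipa1-/-, of which Ly6c2 made 189 and 185. The neutrophil list was near level in MSCs, with 2 of 11 at least 2-fold higher, Mpo at 2.13 and Elane at 1.57. Of 4 eosinophil markers measured in MSCs, Ear2 at 2.19 and Ear1 at 2.03 were higher and Il5ra was lower at -2.03. The Sipa1-/- level of Il5ra was low, at -4.75, where the lowest called well above background was -5.79. Of the eosinophil markers measured in CD8+ T cells 0 of 5 passed 2-fold, with a median of 0.12. Ear1 and Ear2 were just short of it there, at 0.99 each, and 2 of the 5 were below 0. The part of these cells in the chemokine values was not tested.

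**Figure D5:**
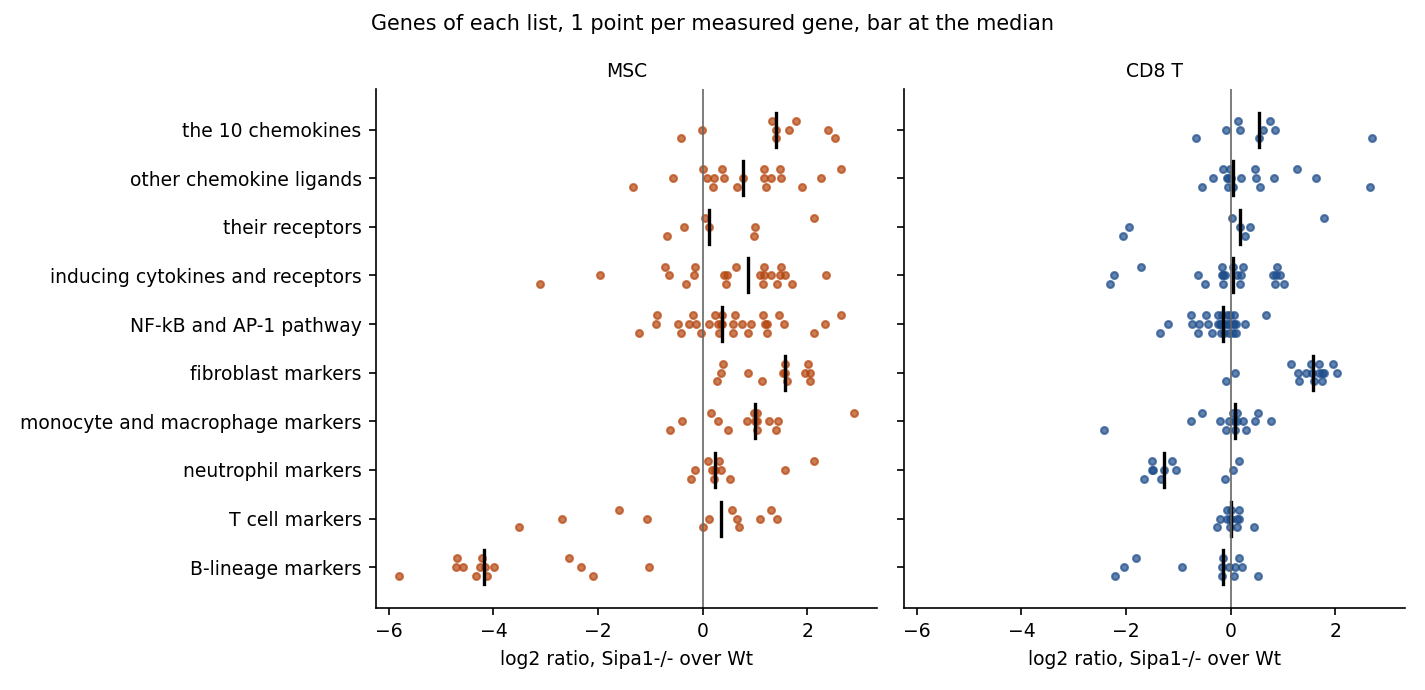
Log2 ratio of Sipa1-/- over Wt (x axis, the same in both panels) for the measured genes of 10 lists, 1 point per gene with a black bar at the median, MSCs left and CD8+ T cells right. In MSCs the chemokines (median 1.41) and fibroblast markers (1.56) stand to the right and B-lineage markers (-4.19) far to the left, and in CD8+ T cells neutrophil markers (-1.27) stand left of 0.

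For 3 chemokines the genes with the most alike pattern over the 4 arrays were taken, from 13763 genes that passed the flags on every array, by the root mean square distance of levels after each gene's mean was subtracted. With 4 arrays this is a description. Nearest to Ccl2 were Ltbp4 and Gjc1, each at a distance of 0.07, and Tpm2 at 0.08. Among those nearest to Ccl5 were the T cell genes Bcl11b at 0.18 and Icos at 0.20. Nearest to Cxcl1 was Serpinb2 at 0.12, with Ccn1 and Serpina3j at 0.29.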

How the data were processed

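The deposited scanner values were used, spot intensities on a linear scale that the authors' software, Agilent Feature Extraction, had corrected for background. Its version is 12.0.3.1 in the file headers and 9.1 in the submitters' processing notes. The authors' series matrix holds the same intensities times 1 constant per array, of unstated basis. Intensities were put on the log2 scale minus each array's 75th percentile over 59305 spots that are not controls. Spots passing the study's flags on both arrays of a pair were averaged per probe, then probes per gene. Symbols came from accessions matched to RefSeq (GRCm38.p6), and 57.6% of spots had a symbol. A log2 ratio of 1 was the threshold. With 1 array per condition no test was possible.

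The chemokines, gene lists and settings were chosen with earlier results of these data known. All 10 were named, and of other lists up to 4 genes with the largest absolute ratios, besides Cxcl9, Cxcl10 and Cxcl12. Marker genes shown as checks (Col1a1, Cd3e, Ptprc), the neighbours within the gene clusters and any further genes given with a value were chosen after values were seen. Some single genes of these lists are not reported here. Alternatives were a median shift, quantile normalization, the matrix values, normexp (offset 50, on the median spot signal), looser flags, no flags, the brightest probe and a 1.5-fold threshold, with ratios relative to marker genes added after seeing the data. The scripts were tested on simulated data. The software was R 4.3.3 with limma 3.58.1, and Python 3.11.15 with pandas 2.3.3 and numpy 2.4.6.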

Additional observations from a re-analysis of the deposited data

Results flagged for a closer look

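For Cxcl1, Cxcl2 and 1 of the 2 Ccl4 probes the genotype ratio had opposite directions in the 2 sorts, each beyond 2 errors of the measurement. Cxcl1 was at 1.64 for MSCs and -0.66 for CD8+ T cells. Cxcl2, whose spot was flagged on 3 arrays, was at 0.59 and -2.69. The Ccl4 probe A_55_P2744077 was at -0.45 and 0.64. The other Ccl4 probe, A_51_P509573, was at -0.37 ± 0.20 and 0.60, within 2 errors of 0 in MSCs, and the MSC ratio of the gene was -0.20 with the authors' matrix values. With 1 array per condition these differences between the sorts were not tested.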

How the results depend on the processing

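The median ratio of the 9 chemokines in MSCs, 1.41, was 1.94 after quantile normalization and 1.61 with the authors' matrix values. Relative to the median of the fibroblast markers it turned to -0.16, and the count of genes at least 2-fold higher went from 7 to 0. In the same setting Ccl2 turned to -0.17, Ccl5 to -0.16 and Cxcl5 to -0.25, and Cxcl2, below 2-fold, to -0.97. In CD8+ T cells the median of 0.55, the ratio of Cxcl5, was 0.23 with normexp. The count of 1 was 4 at 1.5-fold, where Cxcl1 counted as lower. Among values below 2-fold, Ccl3 and Ccl5 also turned sign as given above. The MSC count of 7 and the counts of 6 between the sorts held under all other alternatives tried.

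Scaling moved all genes together. The matrix values shifted the median of all genes by 0.21 in MSCs, 0.13 in CD8+ T cells, and 0.45 and 0.53 between the sorts in Wt and Sipa1-/-. A median shift moved it by -0.14, -0.15, -0.23 and -0.22. Higher genes made up 63.0%, 65.5%, 57.4% and 53.9% of genes past 2-fold in these 4 comparisons. They made up 74.1%, 76.3%, 76.6% and 76.2% with the matrix values, and 52.5% in CD8+ T cells and 45.4% and 42.9% between the sorts after a median shift. In CD8+ T cells normexp left 108 higher and 98 lower genes against 381 and 201, no flags gave 1058 and 633, flags on 1 array 684 and 371, and a threshold of 1.5-fold 951 and 456 of 14336. In MSCs normexp gave 1827 higher against 2956, the 1.5-fold threshold 4528 higher and 3411 lower against 1733, and the marker scaling 123 and 10652. Between the sorts the matrix values gave 1082 lower in Wt and 1357 in Sipa1-/- against 1821 and 2671, flags on 1 array 3896 and 4737 higher against 2456 and 3129, no flags 4183 and 5017 higher, and 1.5-fold 3294 and 4761 lower. Signals near background limit Cxcl5 and Ccl11 in CD8+ T cells. No paired analysis was possible because only 1 array stands for a condition.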
